A study of Mus musculus with 16 samples.

Results

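The 50 histone genes examined here were all genes of the array annotation whose symbol follows the pattern of the clustered histone genes (Hist1h to Hist4h, or the present symbols such as H2bc21). They were 50 of 19505 annotated genes, with 13 H2A, 16 H2B, 10 H3 and 11 H4 genes. The H2B count includes the gene listed as H4bc24, whose older symbol is Hist1h2br. Of the 50, 42 lie in the Hist1 cluster on mouse chromosome 13 and 8 in the Hist2 cluster on chromosome 3. Each gene was read by 1 array feature, and H3c14 and H3c15 had identical values, so they are 1 measurement. Histone genes of a class are close copies of each other, and a feature may also have bound transcripts of its copies, which makes single-gene values uncertain.

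The cells came from the olfactory mucosa of C57BL/6 mice named S100a5-tauGFP in the study, in which GFP reports S100a5. This gene encodes a calcium-binding protein, and olfactory neurons transcribe it more when they are active. Males and females were used, 24 mice aged 7 to 12 weeks, which spent 40 h alone under a clean air flow of 3.1 L/min. Starting at 26 h, a 10 s pulse was given every 20 min, of whiskey lactone (odor), an aroma compound of oak wood, or of filtered air (vehicle). Dissociated cells of 3 mice formed a pool, and fluorescence sorting split each of the 8 pools into 2 fractions. The groups were therefore odor, titled GFP+; odor, titled GFP-; vehicle, titled GFP+; and vehicle, titled GFP-, with 4 arrays in each and the reporter in all of them. The sample titles and the cell type field name opposite fractions in all 16 arrays, and the groups go by the titles here. S100a5 itself went against the titles: its log2 signal was lower in the arrays titled GFP+ than in those titled GFP- of the same pools, with log2 differences of -1.34 ± 0.09 in odor and -1.23 ± 0.09 in vehicle pools (SE, 4 pools each; limma, adjusted p = 2.07e-07 and 4.78e-07). Which cells each title stands for cannot be settled from these sources, so every direction below is that of the titles.

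Clustered histone genes are best known as replication-dependent genes: dividing cells transcribe them in S phase to package new DNA, and most of their messages end in a stem-loop in place of a poly(A) tail. Cells that no longer divide rely more on variant histones, whose genes lie elsewhere, and on a few clustered genes that also give polyadenylated messages. Hist2h2be, now H2bc21, encodes an H2B that differs from the canonical protein at a few residues. In mouse olfactory neurons this variant is known to be abundant, and its level to be higher in neurons that see little activity. Neurons of the olfactory mucosa are replaced throughout life from dividing basal cells.

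The arrays were of similar quality within each fraction, but the median log2 signal over genes differed between fractions. It lay between 6.95 and 7.13 in all arrays titled GFP+, and between 6.62 and 6.70 in all arrays titled GFP-. These ranges do not overlap, so the offset runs along the contrast of fractions tested below. Median centring, 1 of the scalings below, removes it. The medians of the negative control features, the measure of background, were 4.98 to 5.59. Between 58.0 and 66.4% of genes exceeded the control median of their array. Correlations over genes were 0.986 to 0.994 within a group and 0.927 to 0.968 between fractions. Of the histone genes, 47 of 50 exceeded the control median on all 16 arrays, against 53.3% of all genes. H3c1 was at or below it on every array, and H2bc1, a testis H2B gene, on every array of 3 groups, so no fold change is given for either. H4bc24 was at or below it on some arrays titled GFP-. Signals of different features are not comparable as levels, and genes are compared here only by their differences between groups. Precision is limited by having 4 arrays in a group.

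H2bc21 (GRCm38.p6, chr3:96221072-96223738) faces the H2A gene H2ac20 across a gap of 191 bases, and such head-to-head H2A and H2B genes share the stretch between them as promoter. RefSeq windows of 300 bases are shown for the H2A genes of 3 such pairs. They run from 250 before to 50 after the start, on the strand of the gene (GRCm38.p6). The pairs were shown because they differed in how they behaved between fractions. As deposited, 2 pairs had small differences, and the pair of H2ac15 had the largest. Capitals mark the CCAAT box, the TATA motif (TATAAA) and the octamer (ATTTGCAT), each searched on both strands, with none overlapping another here.
H2ac20, chr3:96220831-96221130, minus strand, 5′ to 3′: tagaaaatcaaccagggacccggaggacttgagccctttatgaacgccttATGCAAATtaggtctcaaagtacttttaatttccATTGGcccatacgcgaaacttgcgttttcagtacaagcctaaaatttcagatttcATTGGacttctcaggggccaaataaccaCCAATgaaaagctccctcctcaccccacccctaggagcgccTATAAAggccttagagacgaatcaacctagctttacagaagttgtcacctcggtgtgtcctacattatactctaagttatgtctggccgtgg
H2ac6, chr13:23683910-23684209, minus strand, 5′ to 3′: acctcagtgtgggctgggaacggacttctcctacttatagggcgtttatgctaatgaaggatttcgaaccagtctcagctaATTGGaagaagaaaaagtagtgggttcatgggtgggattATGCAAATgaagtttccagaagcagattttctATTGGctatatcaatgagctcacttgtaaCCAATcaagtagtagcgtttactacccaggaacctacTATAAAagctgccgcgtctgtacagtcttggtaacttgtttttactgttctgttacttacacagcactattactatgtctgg
H2ac15, chr13:21753863-21754162, minus strand, 5′ to 3′: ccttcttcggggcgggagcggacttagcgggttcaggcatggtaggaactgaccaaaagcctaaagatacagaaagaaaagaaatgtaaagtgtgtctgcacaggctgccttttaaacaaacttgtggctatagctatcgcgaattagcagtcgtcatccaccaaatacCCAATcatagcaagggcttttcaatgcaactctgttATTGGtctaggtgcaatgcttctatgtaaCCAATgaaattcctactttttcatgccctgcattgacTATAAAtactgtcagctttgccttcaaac
Each of the 3 windows held 3 CCAAT boxes and 1 TATA motif, and the windows of H2ac20 and H2ac6 also held 1 octamer, which H2ac15 lacked. In H2ac15 the TATA motif lies after the annotated start, in the other 2 before it. The window of H2ac20 reaches into the transcribed part of H2bc21, that of H2ac6 into H2bc4, and that of H2ac15 into H2bc15. Windows were matched for 45 of the 50 genes. H2bc21, H2bc4, H3c1, H3c7 and H4c14 were not matched. CCAAT was found in 84.4% of the matched windows, against 37.4% of all 32851 windows. By class it was found in 13 of 13 H2A, 14 of 14 H2B, 8 of 8 H3 and 3 of 10 H4 windows. TATAAA was found in 55.6%, against 13.6% of all windows, and the octamer in 26.7%, against 1.74%. The 12 windows with an octamer belonged to 6 H2A and 6 H2B genes. Windows of head-to-head pairs overlap, so a motif can be counted for both genes of a pair. H2ac1 and H2bc1, H2ac8 and H2bc8, and H2ac12 and H2bc12 each share the same octamer. The windows of H2bc23 and H4bc24 have the same letters. The shares are therefore not over independent windows. These matches are descriptions of letters and say nothing about binding.

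H2bc21 was strong in every array and differed little between groups. In the arrays titled GFP+ of the odor pools its log2 signals were 15.83, 15.74, 15.76 and 15.89, and in those titled GFP- they were 15.91, 15.88, 16.08 and 15.89. In the vehicle pools they were 15.80, 15.40, 15.91 and 15.90 in arrays titled GFP+ and 15.88, 15.58, 15.81 and 15.999 in arrays titled GFP-. The groups overlapped in both treatments, and the lowest pair of values came from the fractions of vehicle pool 2. Every array lay at least 9.92 log2 units above its control median, so background did not limit the reading. The difference, titled GFP+ minus titled GFP-, was -0.13 ± 0.07 in odor pools (SE, 4 pools; 95% interval -0.28 to 0.02; limma, adjusted p = 0.177). In vehicle pools it was -0.07 ± 0.07 (interval -0.22 to 0.08; adjusted p = 0.507). It was below 0 in 3 of 4 odor and 3 of 4 vehicle pools.

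The activity-linked genes of the same arrays behaved otherwise. Of a list of 12 genes linked to activity in olfactory neurons, S100a5 among them, 9 were lower in arrays titled GFP+ in odor pools. There 14.7% of all genes were lower. In vehicle pools 9 were lower, where 13.6% of all genes were. Only Kirrel3 was called higher there (0.39 ± 0.09, SE; limma, adjusted p = 0.00727), where 12.3% of all genes were. Pcp4l1 differed by -1.89 ± 0.10 in odor and -2.10 ± 0.10 in vehicle pools (SE; limma, adjusted p = 9.29e-09 and 3.69e-09). Lrrc3b differed by -1.64 ± 0.11 and -1.69 ± 0.11 (adjusted p = 8.77e-08 and 7.22e-08). Kcnn2, a potassium channel, differed by -1.20 ± 0.12 and -1.10 ± 0.12 (adjusted p = 4.5e-06 and 1.19e-05). The interval of H2bc21 spans a change to between 0.822 and 1.01 times in odor pools and to between 0.861 and 1.06 times in vehicle pools.

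How H2bc21 is read depends on the scaling. With arrays centred on the median of all genes it was called lower in arrays titled GFP+, by -0.51 in odor (limma, adjusted p = 9.57e-05) and -0.43 in vehicle pools (adjusted p = 0.000369). Centred on housekeeping genes it was also called lower (-1.03 and -0.86), and centred on mature neuron genes it was higher by 0.15 in odor pools (adjusted p = 0.227) and called higher, by 0.24, in vehicle pools (adjusted p = 0.0406). Cyclic loess gave -0.05 and 0.02. These scalings also move the median of all genes, which was -0.15 in odor and -0.14 in vehicle pools as deposited. It became -0.53 and -0.51 with median centring, -1.05 and -0.94 with housekeeping centring, 0.13 and 0.16 with mature neuron centring and -0.02 in both with cyclic loess. Omp, the olfactory marker protein of mature neurons, differed by -0.14 in odor and -0.06 in vehicle pools as deposited, with no call. Centring shifts both genes alike, so the distance between their differences is the same under each centring.

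**Figure D1:**
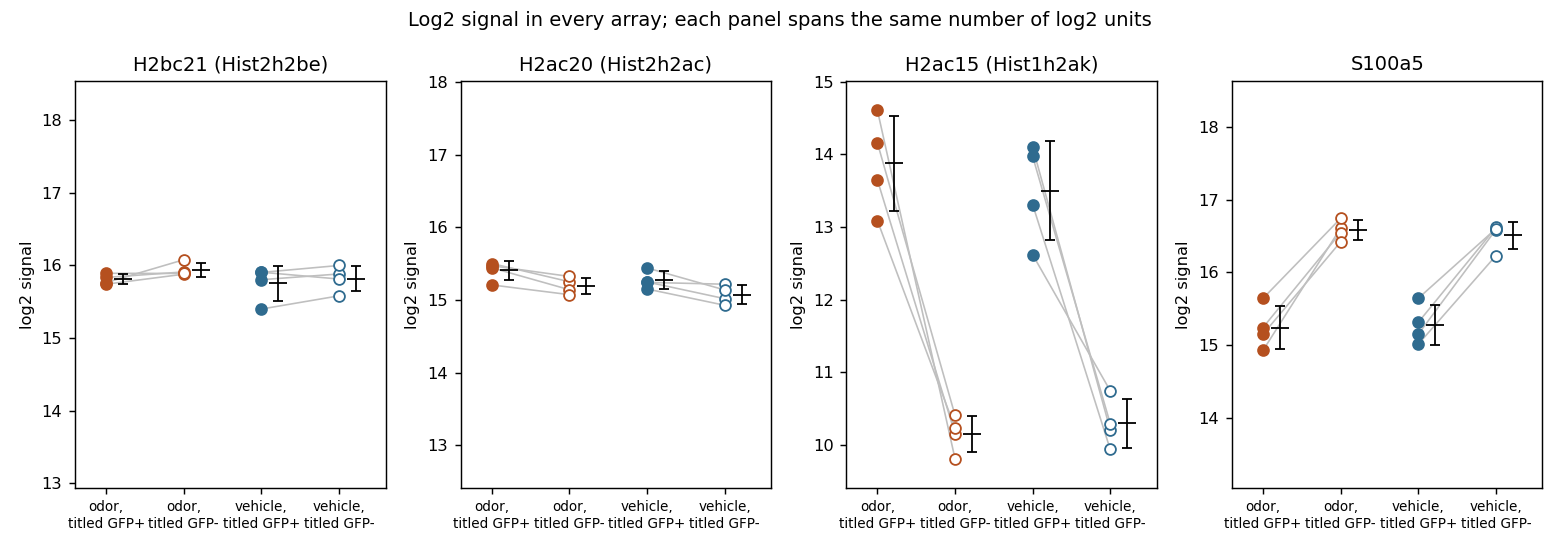
Log2 signal (vertical axes, with the same span in each panel) of H2bc21, H2ac20, H2ac15 and S100a5 in every array, by group. Points are arrays, grey lines join the 2 fractions of a pool, and the horizontal mark with its bar is the group mean ± SD (n = 4); H2ac15 separates the fractions in all 8 pools, while H2bc21 overlaps as deposited (its direction depends on the scaling).

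Most other clustered histone genes had higher signals in arrays titled GFP+ than in arrays titled GFP-. In odor pools 42 of the 50 were called higher and 0 lower (limma, adjusted p under 0.05), where 12.8% of all genes were called higher and 14.7% lower. In vehicle pools 41 were called higher and 1 lower, where 12.3% of all genes were called higher and 13.6% lower. The median log2 difference of the 50 was 1.34 in odor and 1.07 in vehicle pools, that of all genes -0.15 and -0.14. The difference was above 0 for 45 of the 50 in odor pools (32.1% of all genes) and for 44 in vehicle pools (32.8%). In odor pools 39 of the genes had every array titled GFP+ above every array titled GFP- (12.0% of all genes) and 1 the reverse (14.3%). In vehicle pools 35 did (11.2% of all genes) and 0 the reverse. At least 2-fold higher levels were called for 29 genes in odor and 27 in vehicle pools, and at least 4-fold for 12 and 8. The 2 treatments used different pools, and 40 genes were called higher in both, which is 95.2% of the odor list and 97.6% of the vehicle list.

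Scaling moved these counts but not the sign of the median of the 50. Housekeeping centring gave the lowest counts, 26 higher and 13 lower in odor and 23 and 13 in vehicle pools, with medians of 0.44 and 0.27. Median centring gave 31 higher and 6 lower in odor and 29 and 7 in vehicle pools, with medians of 0.96 and 0.70. Cyclic loess gave 44 higher in odor and 43 in vehicle pools, and mature neuron centring 44 and 45, with 0 lower in each. Under the deposited scale and all these alternatives, 26 genes were called higher in odor and 23 in vehicle pools, and 0 were called lower. Of the housekeeping list, B2m, the light chain of MHC class I, differed by 4.87 in odor and 4.54 in vehicle pools (limma, adjusted p = 4.82e-11 and 6.66e-11), and of its 11 genes 5 were higher and 0 lower in odor and 4 higher and 1 lower in vehicle pools.

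**Figure D2:**
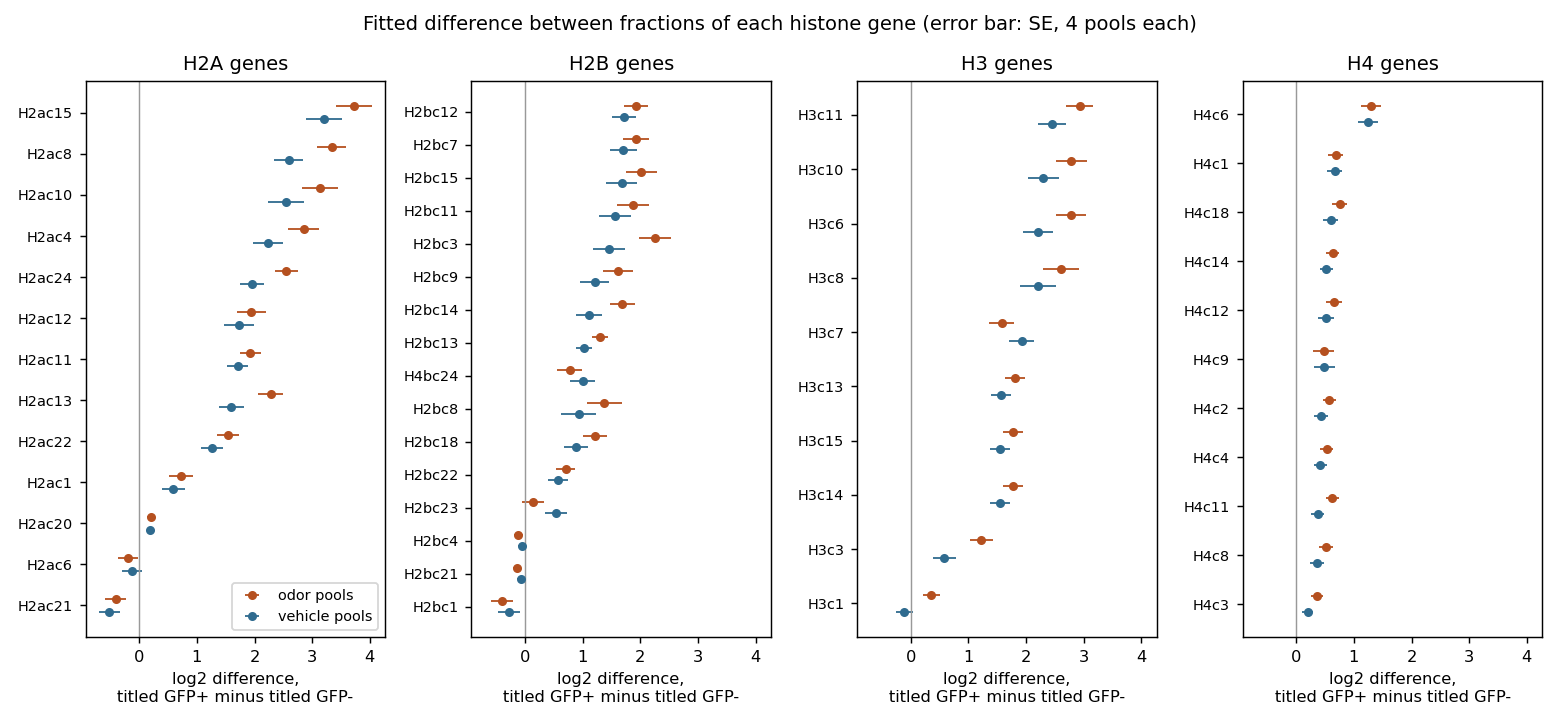
Fitted log2 difference, titled GFP+ minus titled GFP- (horizontal axes), of each of the 50 histone genes by class, with its SE, in odor and vehicle pools (4 each). As deposited, most H2A, H2B and H3 genes lie to the right of 0 with H2ac15 farthest, and H2bc21 and H2bc4 lie near 0. H4 genes lie between 0 and 1 apart from H4c6. Median or housekeeping centring calls H2bc21 and H2bc4 lower, and housekeeping centring turns the H4 median negative. H2bc1 and H3c1 were at background.

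Among the H2A genes, which encode a partner of H2B in the nucleosome, 11 of 13 were higher in odor and 11 in vehicle pools, with medians of 1.95 and 1.71. H2ac15 (Hist1h2ak, chr13:21753377-21753912) had log2 signals of 14.61, 13.65, 14.16 and 13.09 in arrays titled GFP+ of the odor pools, against 9.81, 10.15, 10.41 and 10.24 in those titled GFP-. In the vehicle pools it had 13.31, 12.62, 14.10 and 13.97 in arrays titled GFP+, against 9.94, 10.74, 10.21 and 10.29 in those titled GFP-. The fractions were far apart in every pool, and the arrays titled GFP+ varied more among themselves than the others. H2ac15 was 13.2-fold higher in odor (log2 difference 3.72 ± 0.31, SE; limma, adjusted p = 9.51e-07) and 9.23-fold higher in vehicle pools (3.21 ± 0.31, adjusted p = 4.23e-06).

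Of the other H2A genes, 10 were called higher in odor and 10 in vehicle pools. H2ac8 was 10.1-fold higher in odor and 6.04-fold in vehicle pools (3.34 ± 0.25 and 2.59 ± 0.25, SE; limma, adjusted p = 3.67e-07 and 4.2e-06). H2ac10 was 8.79-fold and 5.83-fold higher (adjusted p = 5.49e-06 and 4.24e-05), and H2ac4 7.21-fold and 4.72-fold higher (adjusted p = 2.46e-06 and 2.52e-05). H2ac24 was 5.88-fold and 3.89-fold higher, and H2ac13 was 4.86-fold and 3.03-fold higher. The testis H2A gene H2ac1 was 1.65-fold and 1.51-fold higher (adjusted p = 0.0183 and 0.0495), but its difference falls below 0 with housekeeping centring (-0.18 and -0.21). H2ac20, the neighbour of H2bc21, had signals of 15.50, 15.44, 15.47 and 15.21 in arrays titled GFP+ of the odor pools, against 15.25, 15.14, 15.32 and 15.07 in those titled GFP-. Its difference was small at 0.21 ± 0.07 in odor and 0.20 ± 0.07 in vehicle pools (adjusted p = 0.0361 and 0.0498), and its call turned with the scaling. It was called lower with median centring (-0.17 and -0.17, adjusted p = 0.0455 and 0.0457) and with housekeeping centring (-0.69 and -0.60, adjusted p = 1.78e-05 and 7.81e-05). H2ac21 (Hist2h2ab) was the only gene of the 50 called lower as deposited, in vehicle pools (-0.52 ± 0.18, adjusted p = 0.0465). In odor pools it differed by -0.41 ± 0.18 (adjusted p = 0.102), and with cyclic loess or mature neuron centring neither difference was called. With median centring it was called lower in odor (-0.79, adjusted p = 0.00139) and in vehicle pools (-0.88, adjusted p = 0.000749). Housekeeping centring also called it lower (-1.31 and -1.32, adjusted p = 5.62e-06 and 8.33e-06). As deposited, the call in vehicle pools was lost when any single pool of either treatment other than vehicle pool 3 was left out.

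Of the H2B genes, 12 of 16 were higher in odor and 13 in vehicle pools, with medians of 1.34 and 1.01. With housekeeping centring these counts were 8 higher and 4 lower in odor and 5 and 3 in vehicle pools, with medians of 0.44 and 0.22. H2bc3 had log2 signals of 10.11, 8.92, 10.21 and 8.20 in arrays titled GFP+ of the odor pools, against 7.16, 6.90, 7.47 and 6.87 in those titled GFP-. In the vehicle pools they were 8.76, 7.94, 9.71 and 8.76 in arrays titled GFP+, against 7.34, 7.39, 7.70 and 6.91 in those titled GFP-. No array titled GFP- reached the lowest of its treatment's arrays titled GFP+. H2bc3 was 4.79-fold higher in odor and 2.75-fold in vehicle pools (2.26 ± 0.28 and 1.46 ± 0.28, SE; limma, adjusted p = 3.46e-05 and 0.00158). H2bc15 was 4.04-fold and 3.20-fold higher, and H2bc12 was 3.80-fold and 3.30-fold higher. H2bc18 (Hist2h2bb), the other H2B gene of the chromosome 3 cluster, was 2.33-fold and 1.85-fold higher (adjusted p = 0.000599 and 0.00638), but with housekeeping centring its log2 difference was 0.32 and 0.09 and was not called (adjusted p = 0.101 and 0.631). As deposited, H2bc23 was called in vehicle pools alone (0.54 ± 0.19, adjusted p = 0.0473), with 0.14 ± 0.19 in odor pools (adjusted p = 0.605). Its difference between treatments was not called. The call in vehicle pools was lost with median centring (0.17, adjusted p = 0.392) and housekeeping centring (-0.26, adjusted p = 0.211). Housekeeping centring called H2bc23 lower in odor pools (-0.76, adjusted p = 0.00138). As deposited, H2bc4 was not called, with -0.11 ± 0.07 in odor and -0.05 ± 0.07 in vehicle pools (adjusted p = 0.288 and 0.664). With median centring it was called lower (-0.49 and -0.42, limma, adjusted p = 0.000199 and 0.000719), and with housekeeping centring too (-1.01 and -0.85).

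Of the H3 genes, 9 of 10 were higher in odor and 9 in vehicle pools, with medians of 1.79 and 1.75. H3c11 had log2 signals of 13.45, 12.87, 13.88 and 12.26 in arrays titled GFP+ of the odor pools, against 10.15, 10.24, 10.34 and 9.99 in those titled GFP-. In the vehicle pools they were 12.34, 12.03, 13.19 and 12.997 in arrays titled GFP+, against 10.17, 10.38, 10.34 and 9.85 in those titled GFP-. The groups did not overlap in either treatment. H3c11 was 7.64-fold higher in odor and 5.47-fold in vehicle pools (2.93 ± 0.24 and 2.45 ± 0.24, SE; limma, adjusted p = 6.92e-07 and 4.05e-06). H3c10 was 6.91-fold and 4.94-fold higher, H3c6 6.91-fold and 4.63-fold, and H3c8 6.08-fold and 4.62-fold. H3c7 was 2.99-fold higher in odor and 3.80-fold in vehicle pools, 1 of 8 genes whose difference was not larger in odor. On chromosome 3, H3c13 was 3.52-fold and 2.98-fold higher, and H3c14, identical to H3c15, 3.42-fold and 2.93-fold. H3c13 and H3c14 differed by at most 0.129 log2 units in any array.

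The H4 genes showed the smallest class median. In odor pools 10 of 11 were higher and in vehicle pools 8, with medians of 0.63 and 0.49, but with housekeeping centring these medians were -0.27 and -0.31, with 5 and 6 genes called lower. H4c6 stood apart: its log2 signals were 12.46, 12.07, 12.68 and 11.47 in arrays titled GFP+ of the odor pools, against 11.03, 10.68, 11.13 and 10.66 in those titled GFP-. It was 2.45-fold higher in odor and 2.38-fold in vehicle pools (1.29 ± 0.17 and 1.25 ± 0.17, SE; limma, adjusted p = 8.42e-05 and 0.000124), the only H4 gene past 2-fold, and it was called higher under each scaling run. H4c1, 1.61-fold and 1.59-fold higher, and H4c14 (Hist2h4), 1.55-fold and 1.44-fold higher, were nearer the class median. H4c4 was 1.44-fold and 1.33-fold higher. With housekeeping centring all of these fell below 0, H4c1 to -0.21 in odor and -0.13 in vehicle pools. H4c3 and H4c8 were called in odor pools alone, and H4c9 in neither (adjusted p = 0.061 and 0.0559).

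By position, 36 of 42 genes of the Hist1 cluster were higher in odor and 35 in vehicle pools, with medians of 1.46 and 1.16. In the Hist2 cluster 6 of 8 were higher in odor and 6 in vehicle pools, with medians of 0.92 and 0.71. H2A and H2B genes stood as neighbours less than 1000 bases apart in 10 pairs. In 7 of these pairs both genes were called higher in odor pools and the same 7 in vehicle pools. Among them was H2ac24 with H4bc24, whose H2B gene was at or below the control median on some arrays titled GFP-. With median centring both genes were called higher in 5 pairs in odor and 5 in vehicle pools, and with housekeeping centring in 4 and 3. H2ac15 and H2bc15, 163 bases apart, differed by 3.72 and 2.02 in odor and by 3.21 and 1.68 in vehicle pools. H2ac6 and H2bc4, 239 bases apart, differed by -0.20 and -0.11 in odor and by -0.13 and -0.05 in vehicle pools, with no call as deposited. With median centring both were called lower, by -0.58 and -0.49 in odor and by -0.50 and -0.42 in vehicle pools. Housekeeping centring also called both lower. H2ac20 and H2bc21 had 0.21 and -0.13 in odor and 0.20 and -0.07 in vehicle pools. The last pair, H2ac1 and H2bc1, holds the testis genes.

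**Figure D3:**
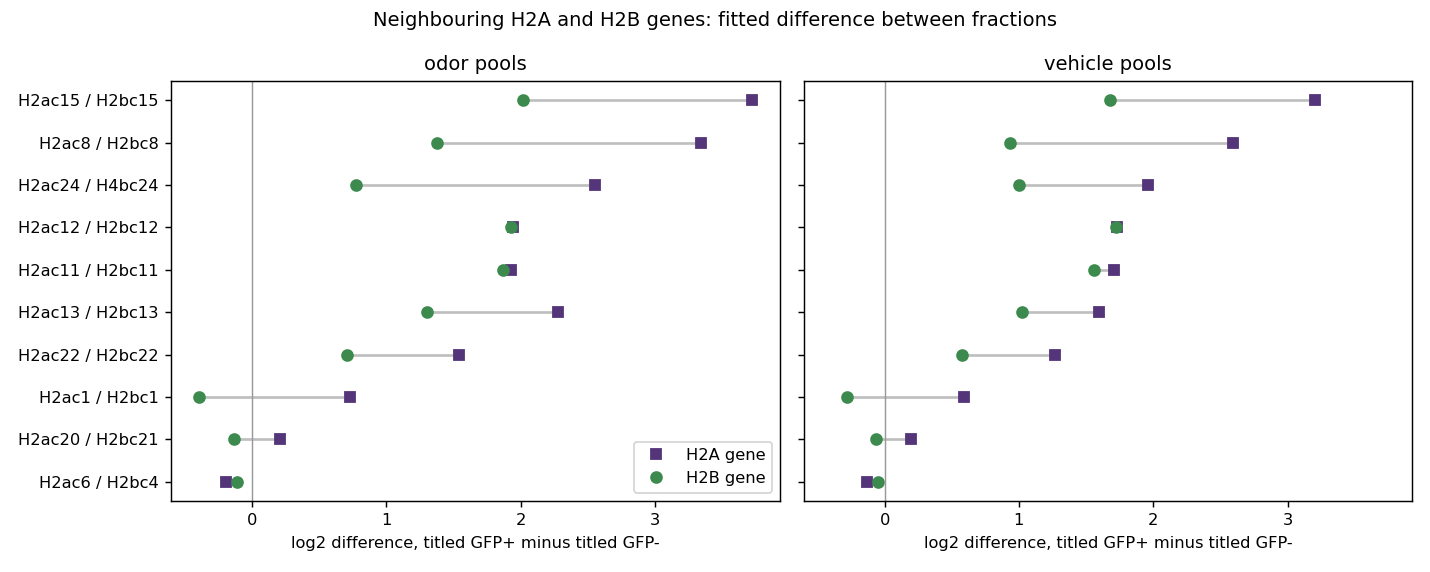
Fitted log2 difference, titled GFP+ minus titled GFP- (horizontal axes), of the H2A gene (square) and the H2B gene (circle) of each of 10 neighbouring pairs, in odor and vehicle pools. The pairs H2ac20 with H2bc21 and H2ac6 with H2bc4 lie near 0 for both genes as deposited. Each of these genes is called lower with median or housekeeping centring. H2ac15 with H2bc15 lies farthest right, and H2bc1 was at background.

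RefSeq gives 5 of the 50 genes a length over 1000 bases: H2bc21, H2bc4, H2bc22, H2bc23 and H4bc24, at 2667 to 14079 bases, against 375 to 911 bases for the other 45. All of the 5 are H2B genes. Their median difference was 0.14 in odor and 0.54 in vehicle pools, against 1.58 and 1.25 for the other 45, and the highest of the 5 was 0.77 and 1.00. The split at this length was chosen after the differences were seen and was given no test.

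Many genes of DNA replication and most of the mitosis genes were also higher in arrays titled GFP+ as deposited. Over all genes, 12.8% were called higher in odor and 12.3% in vehicle pools, and 14.7% and 13.6% lower. Of 28 replication genes 17 were higher and 0 lower in odor pools, and 14 and 0 in vehicle pools. Their medians were 0.93 and 0.64. Housekeeping centring moves these to 0.03 and -0.16, and the median of the 50 histone genes to 0.44 and 0.27. Of the 28, 9 were at background in all arrays of at least 1 group. Rrm2, a subunit of ribonucleotide reductase, was 15.1-fold higher in odor and 10.8-fold in vehicle pools (limma, adjusted p = 3.07e-06 and 1.15e-05), and Mcm6, a subunit of the replicative helicase, 6.48-fold and 5.35-fold (adjusted p = 3.29e-05 and 9.58e-05). Of 14 mitosis genes 14 were higher in odor and 13 in vehicle pools, with medians of 3.06 and 2.33, or 2.16 and 1.54 with housekeeping centring. For 7 of the 14, the arrays of at least 1 group were all at background, so their differences are partly distances to background. The other 7 had medians of 3.05 and 2.61, with 7 called higher in odor and 6 in vehicle pools. Ccnb2, a mitotic cyclin, was 27.4-fold and 14.3-fold higher (adjusted p = 3.97e-07 and 3.31e-06), and Plk1, a mitotic kinase, 10.1-fold and 8.33-fold (adjusted p = 2.84e-06 and 6.89e-06). Mki67, a marker of cycling cells, was above the control median in arrays titled GFP+ and at or below it in all 8 arrays titled GFP-. The log2 of the summed mitosis signal ran from 12.04 to 13.99 in odor, titled GFP+, 9.14 to 9.41 in odor, titled GFP-, 11.3 to 12.8 in vehicle, titled GFP+, and 9.14 to 9.41 in vehicle, titled GFP-.

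Pool by pool, the median signal of the 50 histone genes was 13.49, 13.12, 13.85 and 12.49 in arrays titled GFP+ of the odor pools, against 10.64, 10.58, 10.89 and 10.62 in those titled GFP-. In the vehicle pools it was 12.66, 12.26, 13.30 and 13.20 in arrays titled GFP+, against 10.51, 11.11, 10.92 and 10.47 in those titled GFP-. Odor pool 4 and vehicle pool 2 were the lowest of their arrays titled GFP+. The mean of the mitosis genes was 8.57, 7.74, 8.69 and 7.18 in arrays titled GFP+ of the odor pools and 7.65, 6.65, 7.78 and 7.68 in those of the vehicle pools, with the lowest values in the same pools. The neutrophil genes had their lowest means in these pools too: 15.44, 14.10, 14.90 and 13.29 in arrays titled GFP+ of the odor pools and 14.89, 13.74, 14.45 and 14.49 in those of the vehicle pools. The macrophage mean was lowest in odor pool 2 and vehicle pool 2, at 8.53 and 8.76. The progenitor mean of arrays titled GFP+ was also lowest in these pools, at 5.84 and 5.92. Of the immature neuron genes, the mean was highest in odor pool 4, at 12.33, and lowest in vehicle pool 2, at 11.89. What sets these levels was not tested. The median fraction difference of the 50 genes was 1.75, 1.39, 1.63 and 0.82 in the odor pools and 1.19, 0.45, 1.42 and 1.32 in the vehicle pools.

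**Figure D4:**
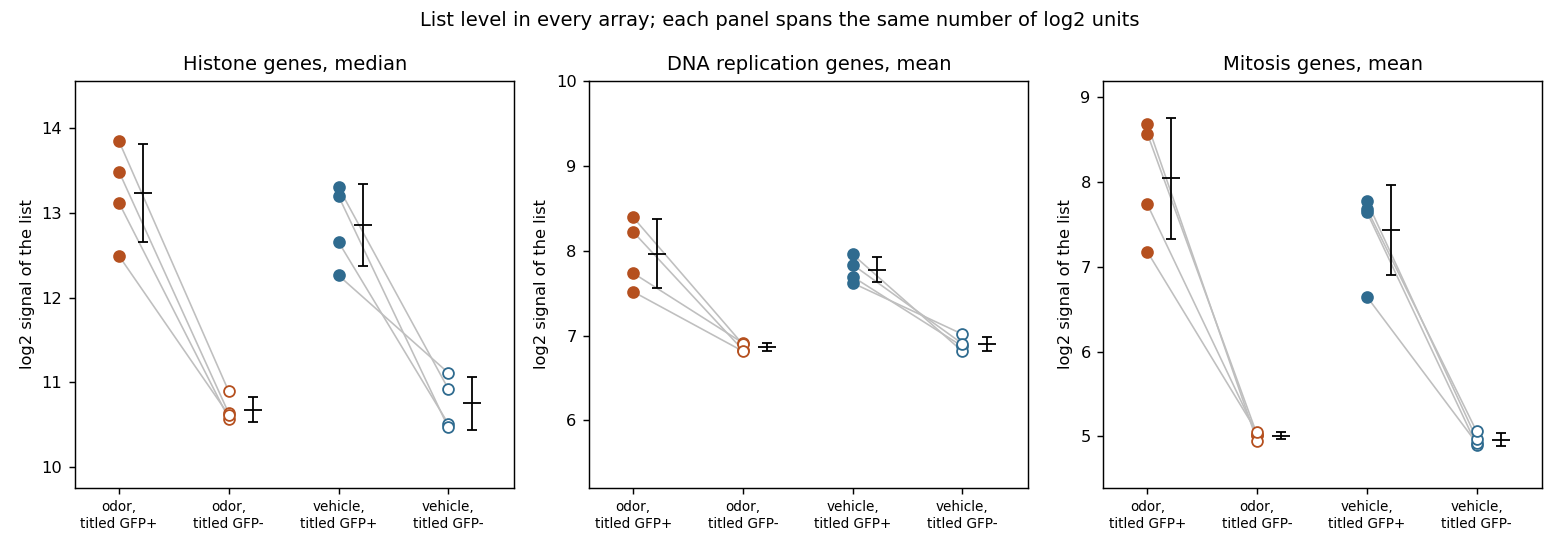
List level in every array (log2 signal, vertical axes, with the same span in each panel): the median of the 50 histone genes, the mean of 28 DNA replication genes and the mean of 14 mitosis genes. Points are arrays, grey lines join the fractions of a pool, and bars are group means ± SD (n = 4); all 3 lists are higher in the array titled GFP+ of each pool as deposited (the replication median turns below 0 in vehicle pools with housekeeping centring), and odor pool 4 and vehicle pool 2 are the lowest of their arrays titled GFP+.

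Markers of several other cell types also differed between the fractions. For the counts below, 12.8% of all genes were called higher and 14.7% lower in odor pools, and 12.3% and 13.6% in vehicle pools. All 11 neutrophil genes were higher in arrays titled GFP+ in odor and all 11 in vehicle pools, with median differences of 8.37 and 8.49. The log2 of their summed signal was 18.7 to 20.1 in odor, titled GFP+, 10.3 to 12.2 in odor, titled GFP-, 19.1 to 19.8 in vehicle, titled GFP+, and 10.4 to 12.0 in vehicle, titled GFP-. Mmp9 and Camp were at or below the control median in all arrays titled GFP-. Of 13 macrophage genes 12 were higher in odor and 13 in vehicle pools, of 8 lymphocyte genes 5 and 6, and of 9 red cell genes 7 and 5. All 8 lymphocyte genes and 6 of the 9 red cell genes were at or below the control median in all arrays of at least 1 group. Their differences are therefore partly distances to background. Of 15 immature neuron genes 8 were higher and 2 lower in odor and 7 and 2 in vehicle pools. Their medians of 1.32 and 0.63 became 0.42 and -0.17 with housekeeping centring. The 2 lower in vehicle pools were Emx2 (-0.46 ± 0.11, SE; limma, adjusted p = 0.00664) and Ncam1 (-0.29 ± 0.10, adjusted p = 0.0457). Gng8, a G protein subunit of immature olfactory neurons, differed by 3.70 ± 0.16 in odor and 4.27 ± 0.16 in vehicle pools (SE; limma, adjusted p = 2.32e-09 and 6.21e-10). The progenitor list had 4 of 8 genes higher and 1 lower in odor and 4 and 0 in vehicle pools. Its medians of 0.68 and 0.60 became -0.22 and -0.20 with housekeeping centring. Neurog1, Trp63, Krt5 and Krt14 were at or below the control median in all 16 arrays. Sustentacular (support cell) genes were higher in 8 of 11 cases in odor and 8 in vehicle pools, and microvillar cell genes in 10 of 11 and 10, with 1 lower in each. Of 7 B cell precursor genes 2 were higher and 1 lower in odor and 2 and 0 in vehicle pools, but 6 of the 7 were at or below the control median in all arrays of at least 1 group. The other was Ebf1, a transcription factor that olfactory neurons also express, which was the gene called lower (-0.25 ± 0.05 in odor pools, limma, adjusted p = 0.00398). Of 18 mature neuron genes 10 were lower in odor and 10 in vehicle pools as deposited, and 0 higher. In such bulk samples fewer cells of a type and less RNA per cell cannot be told apart, and the part of any of these cell types in the histone differences was not tested.

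The fixed lists around the histone genes were less uniform. Of 13 variant histone genes, which are expressed outside S phase or at special chromatin sites, 4 (30.8%) were higher and 0 lower in odor and in vehicle pools. Among all genes 12.8% were higher and 14.7% lower in odor pools, and 12.3% and 13.6% in vehicle pools. Cenpa, the centromeric H3, was 7.13-fold higher in odor and 5.10-fold in vehicle pools (limma, adjusted p = 4.11e-06 and 2.61e-05), and H2ax, the H2A of DNA repair, 3.83-fold and 3.20-fold (adjusted p = 7.84e-06 and 3.25e-05). H3f3a, a gene of the replacement histone H3.3, was 1.49-fold and 1.44-fold higher, while H3f3b, the other gene of the same protein, differed by 0.05 and -0.04 with no call. H2az1 was 1.36-fold and 1.45-fold higher. The differences of H2az1 and H3f3a are smaller than the shift that housekeeping centring makes. Macroh2a1 differed by -0.02 and -0.03. Among 7 linker histones and clustered genes outside the symbol pattern, a list made after the annotation was seen, 2 were higher and 0 lower in odor and in vehicle pools. H1f1, a linker histone, was 11.7-fold and 7.25-fold higher (adjusted p = 2.04e-05 and 0.000156), and H1f2 was not called. The other gene called higher, H1f5, was at or below the control median in all arrays titled GFP- and all vehicle arrays.

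Histone chaperones and the machinery of histone messages mostly were not called. Of 19 chaperone genes 4 (21.1%) were higher and 0 lower in odor and 3 (15.8%) and 0 in vehicle pools. Among all genes 12.8% were higher and 14.7% lower in odor pools, and 12.3% and 13.6% in vehicle pools. Asf1b, an H3 and H4 chaperone of dividing cells, was 9.99-fold and 7.62-fold higher (limma, adjusted p = 1.55e-06 and 5.4e-06). Chaf1b, a subunit of chromatin assembly factor 1, was 2.35-fold higher in odor pools (adjusted p = 0.00493), with 0.74 ± 0.28 on the log2 scale in vehicle pools (adjusted p = 0.0682). Of 16 genes that make or process histone messages, 0 were higher and 1 lower in odor pools, and 0 and 0 in vehicle pools. The 1 called was Sympk, a scaffold of the 3′ cleavage complex (-0.33 ± 0.11, adjusted p = 0.0462). Slbp, which binds the histone stem-loop, differed by 0.02 ± 0.13 and 0.05 ± 0.13 (adjusted p = 0.923 and 0.814).

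Odor and vehicle were then compared within each fraction. Within the arrays titled GFP+, 0 of the 50 histone genes were called (limma, 0.00513% of all genes called), and 5 had an unadjusted p under 0.05, where 4.88% of all genes did. Of the 50, only H3c1, at background, had no overlap between the groups, in the direction of higher in odor (1.34% of all genes higher, 1.04% lower). The median difference, odor minus vehicle, was 0.25, and 43 of 50 genes lay above 0, where 51.2% of all genes did. The smallest p-values among the positive differences were those of H4c14 (0.34 ± 0.14), H2bc14 (0.61 ± 0.26) and H2ac21 (0.43 ± 0.19), each with an adjusted p of 1.00 by limma. Among the negative ones they were those of H2bc4 (-0.20 ± 0.12), H2ac6 (-0.31 ± 0.19) and H3c7 (-0.15 ± 0.26). The mitosis genes lay above 0 in 14 of 14 cases, with a median of 0.61 and 0 called, and the red cell genes in 9 of 9, with a median of 1.07 and 0 called. Single pools set the size: the median of the histone genes was 0.44 without odor pool 4, 0.12 without odor pool 3 and 0.10 without vehicle pool 2. The genes with an unadjusted p under 0.05 numbered 27 without odor pool 4 and 0 without vehicle pool 2 or odor pool 3, with 0 called in each.

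Within the arrays titled GFP-, 0 of the 50 were called and 0 had an unadjusted p under 0.05, where 0% and 5.88% of all genes did. With the replicate number as a block, 13 of all genes were called higher and 1 lower in these arrays, and 10 and 2 in the arrays titled GFP+, with 0 of the 50 among them. The median difference was -0.00, with 23 of 50 above 0, where 50.7% of all genes were, and all 50 overlapped between the groups (2.44% of all genes lay apart as higher and 2.00% as lower). The smallest p-values were those of H2bc23 (0.33 ± 0.18), H2ac21 (0.33 ± 0.19) and H4c14 (0.23 ± 0.14) above 0 and, besides H3c1 at background, of H3c3 (-0.34 ± 0.24) and H2ac6 (-0.24 ± 0.19) below 0. H2bc21 differed by 0.05 ± 0.10 within the arrays titled GFP+ (SE; 95% interval -0.16 to 0.27) and by 0.12 ± 0.10 within those titled GFP- (interval -0.09 to 0.34). Neither was called, and the first falls to -0.06 without vehicle pool 2.

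The difference between fractions was larger in odor than in vehicle pools for 42 of the 50 genes, where 50.0% of all genes lay above 0, but the test of that difference called 0 of them (limma, 0.00513% of all genes called). The median was 0.22, and 3 genes had an unadjusted p under 0.05, where 3.27% of all genes did. These were H3c3 (0.64 ± 0.28), H2ac13 (0.68 ± 0.31) and H3c1, which was at background. Below 0 the smallest p-values were those of H2bc23 (-0.40 ± 0.26), H3c7 (-0.35 ± 0.31) and H4bc24 (-0.23 ± 0.31). For H2bc21 the difference was -0.07 ± 0.10 (SE; 95% interval -0.28 to 0.15). The median of the 50 was 0.03 without vehicle pool 2, where only 26 of the 50 lay above 0. It was 0.40 without odor pool 4, where 44 did. The genes with an unadjusted p under 0.05 ranged from 0 without odor pool 2 to 10 without odor pool 4, with 0 called.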

How the data were processed

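RNA of 50 to 100 ng was labelled with biotin for 16 arrays, per the labels' protocols. The authors deposited log2 signals from Affymetrix Expression Console, as the submitters' processing notes name it. Neither its version nor its normalization is given in the sources used here. Of 28846 features, 19572 carried a gene symbol in the platform annotation, and the brightest feature was kept per gene, which gave 19505 genes. Genes no brighter than the negative control median were treated as background. RefSeq (GRCm38.p6) gave names, coordinates and promoter windows.

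Titles gave groups and replicate numbers. The test was limma 3.58.1 in R 4.3.3 with a variance trend, two-sided, adjusted over all genes (Benjamini-Hochberg, threshold 0.05). Fraction contrasts had a fixed block for the pool (6 degrees of freedom left); treatments used it as a random block (correlation 0.164, 12 degrees of freedom). The fits were also run on simulated data without an offset of all genes between fractions, so that run does not bear on the scaling.

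Members and lists were chosen with earlier results of these data known. Named throughout were H2bc21, S100a5 and Omp. Per fraction contrast and direction, up to 10 called genes of 1 sign in all 4 pools were named, or, where nothing was called, the 3 smallest p-values. The 5 genes of highest mean signal, testis genes, genes outside the large cluster and up to 4 called genes per list were added. A few further genes were picked out once values had been seen.

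As a check of pairing, deviations from group means were correlated. Between the fractions of a pool they gave 0.116 to 0.341. Between treatments, same-numbered pools gave 0.198 to 0.279 (titled GFP-) and 0.0787 to 0.410 (titled GFP+). For each odor array the same-numbered vehicle array of its fraction correlated best, apart from replicate 4 titled GFP+. The main test of odor against vehicle did not use the replicate number as a block. Alternatives were other blocks, 4 other scalings, other features, no dim genes, no variance trend and the omission of each pool.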

Additional observations from a re-analysis of the deposited data

Results flagged for a closer look

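In 7 of the 200 groups of 4 arrays formed by the 50 histone genes (3.5%), 1 array stood apart from the other 3 by more than Dixon's 95% critical value. Chance flags about 1 in 20 such groups. H2bc21 had 16.08 in odor, titled GFP-, pool 3, against 15.88 to 15.91 in the others. In the same array H2ac11 had 13.31, against 12.95 to 13. H2bc9 had 8.75 in odor, titled GFP-, pool 2, against 9.10 to 9.17. H4c14 had 13.39 in odor, titled GFP+, pool 4, against 13.89 to 13.99. H2ac1 had 7.80 in vehicle, titled GFP+, pool 2, against 8.24 to 8.28. In vehicle, titled GFP-, pool 2, H2ac12 had 13.46, against 12.74 to 12.84, and H2ac22 had 14.08, against 13.62 to 13.69. Their causes were not tested. No difference between treatments of a fraction contrast passed its test for a histone gene.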

How the results depend on the processing

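Of the alternatives, scaling moved the counts most, and the cause was not tested beyond the shift of all genes given above. In odor pools the genes called higher ran from 26 with housekeeping centring to 44, and the genes called lower were 6 with median and 13 with housekeeping centring; the median of the 50 fell to 0.44 with housekeeping centring. In vehicle pools housekeeping centring gave 23 higher, 13 lower and a median of 0.27. The 1 gene called lower there became 7 with median centring and 0 with cyclic loess, mature neuron centring, no replicate block or only the arrays compared. H2bc21 turned to 0.15 in odor and 0.24 in vehicle pools with mature neuron centring and to 0.025 in vehicle pools with cyclic loess. It passed the threshold with median centring (-0.51 and -0.43) and housekeeping centring (-1.03 and -0.86). Within the arrays titled GFP+ it turned to -0.0095 with housekeeping centring and, over the omission of single pools, ran from -0.0635 (without vehicle pool 2) to 0.106.

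Leaving out 1 pool at a time gave 38 to 42 genes higher in odor (0 lower) and 31 to 41 in vehicle pools (0 to 1 lower). With no replicate block the counts higher were 40 and 38, with a random pool block 41 and 39, and with identical genes counted once 41 and 40. With the replicate number as a block, odor against vehicle still called 0 of the 50 in either fraction.

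Over all genes, calls ran from 1292 higher and 16814 lower (housekeeping centring) to 3699 and 818 (mature neuron centring) in odor pools, and from 1282 and 16522 to 4067 and 693 in vehicle pools.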
